A study of Homo sapiens with 61 samples.

Results

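Neurons are sorted by the transmitter they make and load into vesicles. The 9 genes described here mark those classes, out of 58440 genes in the count tables: GAD1, GAD2 and SLC32A1 for GABA, SLC17A6, SLC17A7 and SLC17A8 for glutamate, CHAT and SLC18A3 for acetylcholine, and SLC18A2 for monoamines. They were taken by symbol from a list of transmitter synthesis and transport genes, whatever their level, except that GAD2 was selected on its fitted responses to vincristine, which differed under 2 guide RNAs. No numeric threshold came with that choice. All GAD2 values from the guide experiment are therefore given as a description, without a test. All 9 genes had counts, and 8 passed the filter on low counts in each experiment. SLC17A8, with at most 8 counts in a library of the knockout experiment and 10 in the guide experiment, did not. In the knockout experiment GAD2 and SLC32A1 passed the filter only through double KO libraries, so they could be tested because that line was high. GAD1 passed there only through knockout libraries, as it was too low in WT.

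The 61 libraries are bulk poly(A) RNA from human neurons made from WTC11, an established induced pluripotent stem cell line, by driving NGN2, a transcription factor that turns stem cells into neurons. In the knockout experiment (32 libraries), each line carried a doxycycline-driven NGN2 cassette and was WT, DLK KO (gene MAP3K12), LZK KO (gene MAP3K13) or DLK LZK double KO, here called double KO. In the guide experiment (29 libraries), i3Neurons with CRISPR interference machinery, which silences a gene without cutting it, received by lentivirus a guide to ATF2 (ATF2 gRNA), to JUN (JUN gRNA) or with a scrambled sequence (Control gRNA). DLK and LZK are kinases of the axonal stress pathway, and ATF2 and JUN are transcription factors that it acts on. At day 14 (the extraction protocol gives a range of days ending there) every line was exposed for 16 h to 5 nM vincristine, which takes microtubules apart, or to DMSO alone (untreated), with 4 libraries per group in the knockout experiment and 5 in the guide experiment, except 4 for ATF2 gRNA with vincristine. The labels give 1 line per knockout genotype and do not say whether a line is 1 clone, so genotype and line cannot be told apart. Nothing in them says whether replicates came from separate differentiations, and the p-values measure the spread between these libraries only.

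GAD1 and GAD2 encode the enzymes that make GABA from glutamate, and SLC32A1 (VGAT) loads GABA and glycine into vesicles. SLC17A6 (VGLUT2), SLC17A7 (VGLUT1) and SLC17A8 (VGLUT3) load glutamate, CHAT makes acetylcholine and SLC18A3 (VAChT) loads it, and SLC18A2 (VMAT2) loads dopamine, serotonin, noradrenaline and histamine. NGN2-driven neurons are usually described as glutamatergic. In bulk RNA, a change in the number of cells that express a gene and a change in RNA per cell cannot be told apart.

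The stretch before the gene start is shown for GAD2 and SLC32A1, both higher in untreated double KO and under the ATF2 gRNA. GAD1, also higher in both, was covered there by exons. It is shown as well for SLC18A2, the only member whose window held a cAMP response element, the site bound by ATF2 and its relatives. Sequences are RefSeq promoters on GRCh38.p14, plus strand, 5′ to 3′, ending before the first annotated exon base (SLC18A2: at the end of the motif, with 1 base of exon). Capitals mark a match to TGACGTCA (the cAMP response element), TGANTCA (AP-1), TGACGCAA or its reverse complement, or CANNTG (E-box, the kind of site NGN2 binds).
GAD2 chr10:26216122-26216306: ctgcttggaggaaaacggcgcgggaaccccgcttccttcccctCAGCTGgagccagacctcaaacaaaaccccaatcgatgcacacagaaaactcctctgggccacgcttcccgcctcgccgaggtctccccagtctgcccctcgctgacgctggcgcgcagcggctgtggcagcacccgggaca
SLC32A1 chr20:38724236-38724461: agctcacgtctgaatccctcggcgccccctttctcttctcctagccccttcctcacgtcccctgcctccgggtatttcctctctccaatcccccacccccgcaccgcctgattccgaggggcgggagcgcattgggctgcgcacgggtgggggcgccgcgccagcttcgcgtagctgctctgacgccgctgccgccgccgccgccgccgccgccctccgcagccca
SLC18A2 chr10:117240864-117241073: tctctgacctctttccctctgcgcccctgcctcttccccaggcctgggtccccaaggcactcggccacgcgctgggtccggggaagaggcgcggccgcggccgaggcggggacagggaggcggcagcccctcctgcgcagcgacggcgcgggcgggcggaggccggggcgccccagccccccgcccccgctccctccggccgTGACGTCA
All 9 genes matched the promoter table. Over the whole 300 base windows, on both strands, TGACGTCA was found in SLC18A2 only, starting 48 bases before the gene start, and neither TGANTCA nor TGACGCAA was found in any member. CANNTG was found in GAD1, GAD2, SLC17A6, SLC17A7, SLC17A8, CHAT and SLC18A3 and not in the windows of SLC32A1 or SLC18A2. Of 35116 promoter windows of the same length, 1.85% held TGACGTCA, 7.71% TGANTCA, 0.513% TGACGCAA or its reverse complement, and 68.7% CANNTG. A match is a description of the letters and not evidence of binding.

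Total counts ran from 8.41 to 14.6 M in the knockout experiment and from 38.9 to 88.4 M in the guide experiment. Untreated MAP3K12 was 91.0 CPM (counts relative to the library total after TMM scaling) in WT and 26.3 for DLK KO, and MAP3K13 was 99.1 in WT and 31.9 for LZK KO. ATF2 was 129 CPM under the Control gRNA and 0.526 under the ATF2 gRNA, and JUN was 88.5 and 2.87 under the Control and JUN gRNA. JUN was also lower under the ATF2 gRNA, at 21 CPM, so that guide did not leave JUN at its Control gRNA level. In the untreated knockout experiment JUN was 140 CPM in WT, 55.3 for DLK KO, 116 for LZK KO and 39.6 for double KO. Pan-neuronal markers summed to 12600 to 19100 CPM in untreated libraries. The submitters call the cells cortical. The 8 forebrain and cortical markers summed to 189 to 214 CPM in untreated WT and 204 to 209 under the Control gRNA, of which CUX1 was 130 and 131 CPM and CUX2 52.4 and 36.4. EMX1 and EMX2, on the same list, were at most 0.624 and 0.74 CPM in any untreated group. The 6 peripheral and brainstem markers summed to 427 to 461 and 484 to 505 CPM, nearly all of it POU4F1, a sensory neuron factor (435 and 481). The library furthest from its group in the knockout experiment was WT vincristine replicate 4 (median r of 0.9737 with its group, the others 0.9769 or more), and in the guide experiment ATF2 gRNA vincristine replicate 2 (0.9501, the others 0.9584 or more).

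Members were called where edgeR's quasi-likelihood test, with the Benjamini-Hochberg adjustment across every gene tested, gave p under 0.05. Without treatment, 7 of 8 members were called for double KO against WT (45.7% of all genes), 6 of 8 for DLK KO (34.5%) and 6 of 8 for LZK KO (33.9%). The 7 include GAD2 and SLC32A1, which passed the low-count filter only through double KO. GAD1, called in each knockout line, passed it only through knockout libraries. With GAD2 left out, 6 of 7 were called for the ATF2 gRNA against the Control gRNA (39.9%), 2 of 7 for the JUN gRNA (11.2%) and 6 of 7 for the ATF2 gRNA against the JUN gRNA (34.8%). Vincristine gave 4 of 8 calls for WT (30.2%), 1 for DLK KO (6.53%), 0 for LZK KO (3.88%) and 0 for double KO (0.0658%), and 4 of 7 under the Control gRNA (35.3%), 1 under the ATF2 gRNA (6.1%) and 1 under the JUN gRNA (15.9%). The response itself differed from WT in 1 of 8 members for DLK KO (19.4%), 0 for LZK KO (12.4%) and 1 for double KO (19.4%), and from Control gRNA in 3 of 7 under the ATF2 gRNA (20.6%) and 3 of 7 under the JUN gRNA (15.8%). Between the ATF2 and JUN gRNA 1 of 7 differed in response (2.83%), and 0 of 8 differed between double KO and DLK KO (1.14%) or LZK KO (0.916%). Where edgeR made 0 calls, DESeq2 also made 0, and an unadjusted p under 0.05 was reached by 1 member for vincristine in LZK KO, 3 for the difference of LZK KO from WT, and 0 in the other 3 comparisons. Many genes differed between untreated lines, and the share of members called there is to be read against that background.

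**Figure D1:**
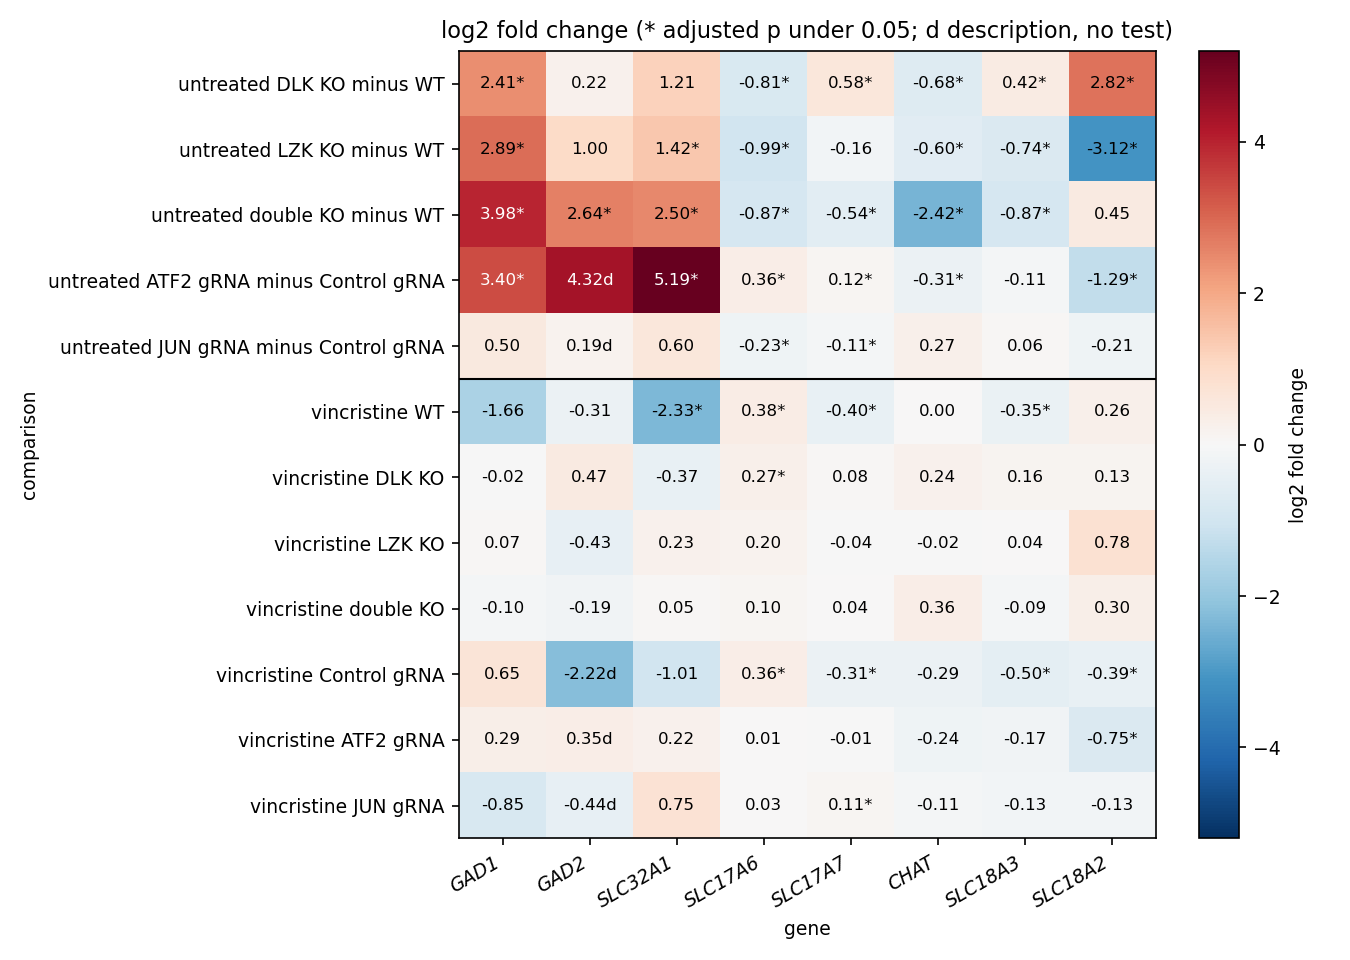
log2 fold changes of the 8 members that passed the filter (columns) in 12 comparisons (rows: untreated lines above the black line, vincristine against untreated in each line below it). Red is higher and blue lower, * marks an adjusted p under 0.05, and d marks GAD2 values given without a test; the GABA columns hold the largest rises, up to 5.19 for SLC32A1 under the ATF2 gRNA.

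The GABA genes were barely expressed in WT and Control gRNA neurons and higher in several altered lines. GAD1 in untreated WT was 0.191, 0.652, 0.421 and 0 CPM (15 counts in all 4 libraries together). It was 3.06, 1.5, 1.33 and 1.29 for DLK KO, 2.27, 2.41, 2.31 and 3.06 for LZK KO, and 5.3, 5.21, 5.03 and 5.96 for double KO. No knockout library overlapped WT, and the double KO libraries lay above all others. The log2 fold change of GAD1 (chr2:170813213-170861151, plus strand) against WT was 2.41 ± 0.42 (SE, adjusted p = 1.69e-05) for DLK KO, 2.89 ± 0.40 (3.79e-07) for LZK KO and 3.98 ± 0.35 (4.98e-12) for double KO, the last 15.8-fold. GAD1 passed the low-count filter only through knockout libraries, untreated WT being at most 0.652 CPM. These p-values are thus not open tests of a rise over WT.

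GAD2 (chr10:26216307-26304558, plus strand), the other GABA-making enzyme, was called higher in double KO and in neither single knockout; the lines were not tested against each other. Its untreated level was 0.287, 0.559, 0.421 and 0.397 CPM in WT and 3.22, 1.84, 2.85 and 2.79 in double KO, with no overlap. This was a log2 fold change of 2.64 ± 0.34 (adjusted p = 3.52e-08), or 6.22-fold. GAD2 passed the low-count filter only through double KO (other group means 0.33 to 0.825 CPM). The p-value is thus not an open test of a rise in that line. DLK KO (0.383, 0.299, 0.53 and 0.753 CPM) overlapped WT, at 0.22 ± 0.46 (0.754), and so did LZK KO (0.91, 0.481, 1.2 and 0.706), at 1.00 ± 0.42 (0.0635). The LZK KO value passed without LZK KO replicate 2, at 1.16 (adjusted p = 0.04).

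SLC32A1 (chr20:38724462-38729372, plus strand), the vesicular GABA transporter, was 0.669, 0.28, 0.0702 and 0.199 CPM in untreated WT and 0.936, 1.93, 1.76 and 2.05 in double KO, again without overlap. The log2 fold change was 2.50 ± 0.43 (adjusted p = 6.98e-06). Here too the low-count filter was passed only through double KO (other group means 0.0494 to 0.932 CPM), so this is not an open test. LZK KO libraries (1.14, 0.842, 0.925 and 0.235 CPM) overlapped WT, and the call there, 1.42 ± 0.50 (0.0252), was lost under 7 of 12 alternatives, with adjusted p up to 0.132 without WT replicate 3. DLK KO (0.765, 0.698, 0.707 and 0.538 CPM) was at 1.21 ± 0.50 (0.0614), and passed, at 1.92 (0.00907), without WT replicate 1.

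In the guide experiment the ATF2 gRNA libraries stood far above the rest for all 3 GABA genes, with and without vincristine. Untreated SLC32A1 was 0.374, 1.14, 0.178, 0.0216 and 0.181 CPM under the Control gRNA, 14.2, 11, 11.2, 14 and 13.1 under the ATF2 gRNA, and 0.517, 0.53, 0.727, 0.349 and 0.476 under the JUN gRNA. ATF2 gRNA libraries did not overlap either of the others, and JUN and Control gRNA libraries overlapped. The log2 fold change for ATF2 against Control gRNA was 5.19 ± 0.39 (adjusted p = 3.82e-12), or 36.6-fold. GAD1 was 0.519, 0, 0.518, 0.13 and 0.0725 CPM under the Control gRNA and 2.04, 2.52, 3.11, 3.02 and 2.96 under the ATF2 gRNA, a change of 3.4 ± 0.62 (3.8e-05), or 10.5-fold. Under the JUN gRNA, GAD1 (0.0757 to 0.548 CPM) overlapped Control gRNA.

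GAD2 under the guides, the choice that fixed its place here, had these values. Untreated libraries were 0.602, 0.185, 0.548, 0.606 and 0.236 CPM with the Control gRNA and 0.193, 0.0942, 0.0691, 0.0485 and 0 with vincristine. Those ranges overlap through the vincristine library at 0.193. ATF2 gRNA libraries were 9.96, 9.07, 7.87, 8.69 and 8.81 untreated and 13.6, 12.1, 8.63 and 10.8 with vincristine. JUN gRNA libraries were 0.329, 0.644, 0.512, 0.611 and 0.417 untreated and 0.56, 0.361, 0.334, 0.296 and 0.308 with vincristine. With the drug, the Control gRNA libraries lay below all JUN gRNA libraries. They held 30 counts against 114 untreated, in 5 libraries each.

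The fitted response of GAD2 to vincristine was a log2 change of -2.22 ± 0.37 under the Control gRNA, 0.35 ± 0.23 under the ATF2 gRNA and -0.44 ± 0.29 under the JUN gRNA. The differences from Control gRNA that chose the gene were 2.57 ± 0.43 for the ATF2 gRNA and 1.78 ± 0.47 for the JUN gRNA, and both share the Control gRNA libraries. Control gRNA vincristine replicate 1 carried 17 of the 30 counts. Without it the response under the Control gRNA was -2.89 and the differences were 3.23 and 2.44. Between untreated groups the log2 change was 4.32 ± 0.27 for the ATF2 gRNA, 20-fold, and 0.19 ± 0.29 for the JUN gRNA.

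The knockout experiment played no part in choosing GAD2 and gave no call for its response. WT libraries were 0.304, 0.54, 0.261 and 0.216 CPM with vincristine, on 14 counts against 19 untreated, at a log2 change of -0.31 ± 0.49 (adjusted p = 0.685). It was 0.47 ± 0.42 (0.525) for DLK KO, -0.43 ± 0.41 (0.667) for LZK KO and -0.19 ± 0.26 (0.893) for double KO. The difference from WT was 0.78 ± 0.65 (0.439) for DLK KO, -0.13 ± 0.67 (0.931) for LZK KO and 0.11 ± 0.53 (0.914) for double KO, and the last 2 changed sign when some single libraries were left out.

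By group mean, GAD2 in the knockout experiment ran from double KO untreated (2.68 CPM) and double KO with vincristine (2.31) through LZK KO untreated (0.825), DLK KO with vincristine (0.674), LZK KO with vincristine (0.634), DLK KO untreated (0.491) and WT untreated (0.416) to WT with vincristine (0.33). The only neighbours in that order whose libraries did not overlap were double KO with vincristine and LZK KO untreated. In the guide experiment the order was ATF2 gRNA with vincristine (11.3), ATF2 gRNA untreated (8.88), JUN gRNA untreated (0.503), Control gRNA untreated (0.435), JUN gRNA with vincristine (0.372) and Control gRNA with vincristine (0.081). There, ATF2 gRNA untreated and JUN gRNA untreated were apart, and so were JUN gRNA and Control gRNA with vincristine. The tables were scaled separately, so levels are not compared across experiments.

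Vincristine left GAD1 and SLC32A1 at few counts in WT. SLC32A1 had 2 counts in 4 treated libraries against 13 untreated, a ratio of 0.168 (95% interval 0.0184 to 0.74, which covers counting error only). The call, -2.33 ± 0.85 (adjusted p = 0.0357), was lost under 6 of 12 alternatives, and without WT untreated replicate 1, which held 7 of the 13 counts, it was -1.62 (0.214). GAD1 had 4 counts against 15, a ratio of 0.29 (0.0702 to 0.912), and was not called (-1.66 ± 0.78, 0.106), though it passed without WT untreated replicate 4 (-2.01, 0.0326). For SLC32A1 the difference in response from WT was 1.96 ± 0.97 (0.159) for DLK KO, 2.55 ± 0.95 (0.0754) for LZK KO and 2.38 ± 0.91 (0.062) for double KO. Without WT untreated replicate 3 the last 2 passed (2.95, 0.0355, and 2.78, 0.0263). Under the Control gRNA its response was -1.01 ± 0.51 (0.139), and it differed from that by 1.23 ± 0.60 (0.159) under the ATF2 gRNA and 1.76 ± 0.64 (0.0606) under the JUN gRNA. The JUN gRNA value passed under 7 of 26 alternatives, DESeq2 included (1.92, 0.018). These 3 values rest on Control gRNA untreated replicate 2, at 1.14 CPM the highest of its group: without it they were -0.14, 0.37 and 0.89, none of which passed. Without the same library, SLC32A1 was called higher under the JUN gRNA than the Control gRNA when untreated (1.47, adjusted p = 0.00311, against 0.60 ± 0.43, 0.496, with it).

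**Figure D2:**
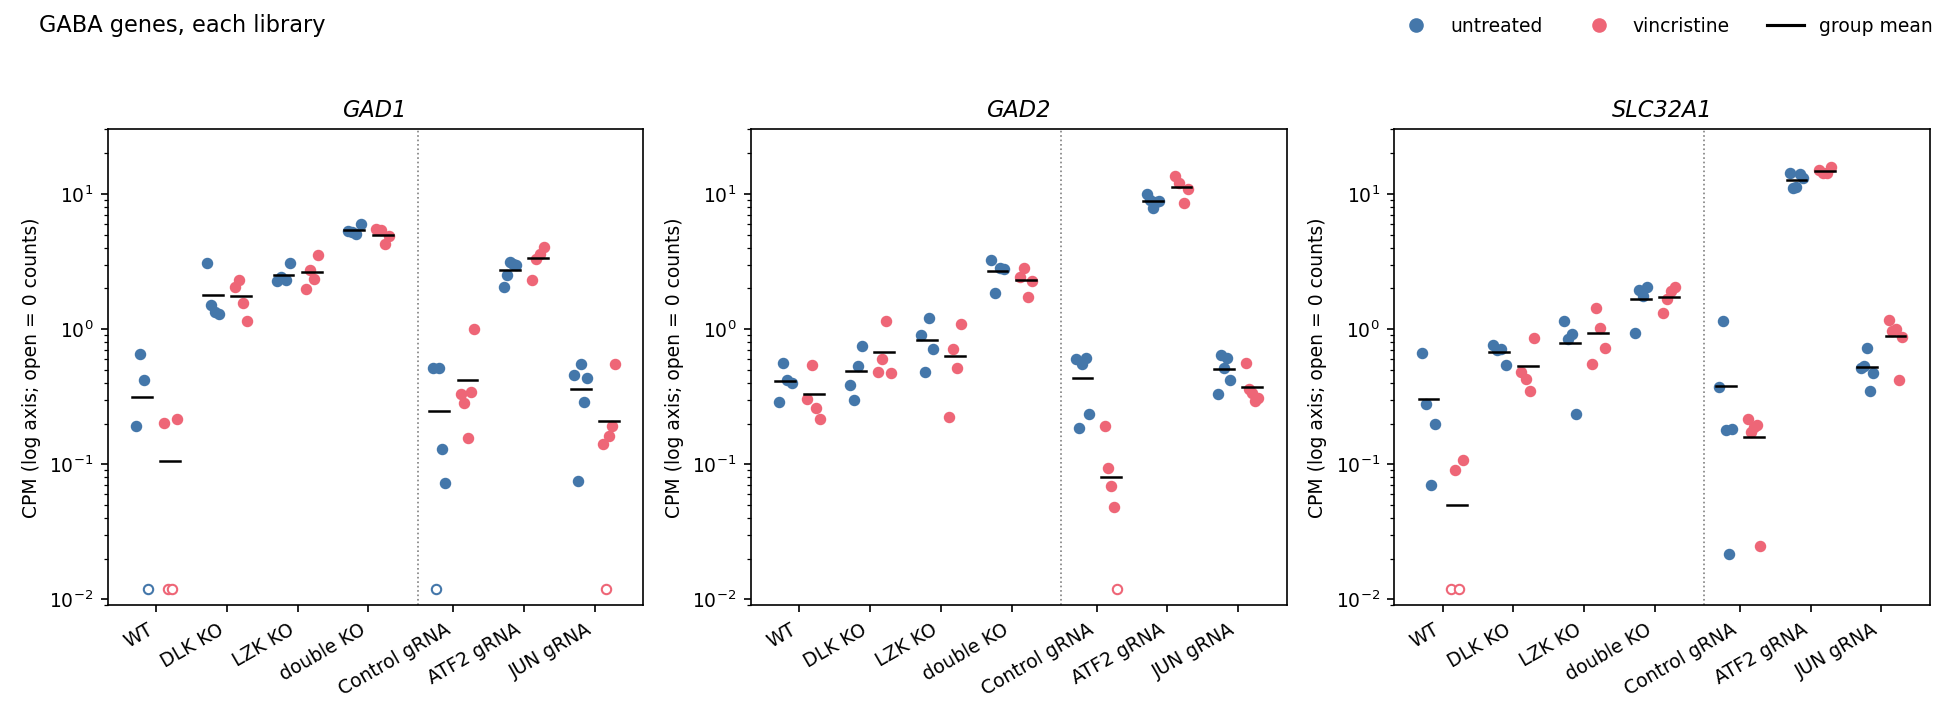
CPM of GAD1, GAD2 and SLC32A1 in each of the 61 libraries (points, blue untreated and red vincristine, log axis; open points at the bottom had 0 counts; black lines are group means; the dotted line parts the experiments, which were scaled separately). Double KO and ATF2 gRNA libraries lie above the other libraries of their experiment for GAD1 and GAD2, and ATF2 gRNA libraries for SLC32A1, at 11 to 15.7 CPM.

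Other GABA pathway genes had no common direction. Of 7 on the list, 2 rose and 1 fell in untreated double KO among 6 tested (median log2 change -0.01), and 2 rose and 1 fell under the ATF2 gRNA among 7 tested (median -0.16). These shares are near the 45.7% and 39.9% of all genes called in the 2 comparisons. SLC6A11 (GAT3), a GABA uptake transporter, rose by 1.10 ± 0.24 (adjusted p = 0.000226) in double KO, and its value under the ATF2 gRNA was -0.16 ± 0.58 (0.871). ABAT, which breaks GABA down, fell in both, by 0.30 and 0.25, and rose by 0.40 ± 0.09 (adjusted p = 0.000438) for DLK KO and 0.85 ± 0.09 (5.73e-10) for LZK KO. The median over all genes tested was 0.01 in double KO and 0.02 under the ATF2 gRNA.

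Transcription factors of GABAergic lineages differed as well, but not the same ones in each line. In double KO, 6 of 10 tested were higher (GATA3, LHX6 and LHX5 among them) and 3 lower (LHX1, DLX2 and PAX2), with a median of 0.91. Of all genes, 45.7% were called there. Under the ATF2 gRNA, 6 of 11 were higher (DLX2, LHX5, LHX1, TAL1, PAX2 and GATA2) and none lower, with a median of 1.08, beside 39.9% of all genes called. In DLK KO 8 of 10 rose and 2 fell (34.5% of all genes called), in LZK KO 6 of 10 rose and 1 fell (33.9%), and under the JUN gRNA 1 of 11 rose and 0 fell, near the 11.2% of all genes. The whole list summed to 184 to 195 CPM in untreated WT, 152 to 203 for DLK KO, 111 to 137 for LZK KO and 74.6 to 81.9 for double KO, and to 80.4 to 85.7 under the Control gRNA and 217 to 240 under the ATF2 gRNA. LHX1, a factor of spinal and brainstem interneurons, was 142 CPM in WT against 22.6 in double KO (-2.66 ± 0.14, adjusted p = 3.4e-16), and 45.2 under the Control gRNA against 155 under the ATF2 gRNA (1.78 ± 0.05, 6.53e-32). DLX2, of forebrain interneurons, fell by 2.22 in double KO, from 0.454 to 0.0903 CPM, and rose by 3.51 under the ATF2 gRNA, from 0.118 to 1.40 CPM. The double KO level of DLX2 lay near 0.067 CPM, which 3 counts over the 4 libraries together would give, so that fall rests on few counts. DLX5 was at most 0.0978 CPM and DLX6 at most 0.238 CPM in the untreated groups.

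Markers of stem cells and progenitors moved with these groups, in different directions. The 5 pluripotency genes summed to 2.81 to 3.35 CPM in untreated WT, 10.3 to 14.3 for DLK KO, 13.2 to 18.8 for LZK KO and 52.9 to 59.1 for double KO. Under the guides they summed to 9.58 to 13.5 with Control, 33.8 to 40.2 with ATF2 and 17.3 to 19.1 with JUN gRNA. LIN28A made up most of the sum in double KO (53.4 of it, against 1.88 CPM in WT), and DPPA4 and LIN28A under the ATF2 gRNA (19.6 and 15.9 CPM). The defining genes POU5F1 and NANOG were at most 0.67 and 0.222 CPM in any untreated group. MKI67, a gene of dividing cells, was 4.83 CPM in WT, 8.88 for DLK KO, 33.1 for LZK KO and 15.5 for double KO. The 6 progenitor markers, MKI67 among them, instead summed to less: 734 to 775 CPM in untreated WT, 210 to 274 for DLK KO, 516 to 675 for LZK KO and 125 to 133 for double KO, and 1310 to 1400 under the Control gRNA, 739 to 816 under the ATF2 gRNA and 958 to 1080 under the JUN gRNA. NES, which encodes the intermediate filament nestin, made up most of that sum (717 CPM in WT and 92.1 in double KO). Both pluripotency genes tested in the knockout experiment, LIN28A and DPPA4, rose in each knockout line. Of all genes, 34.5% were called for DLK KO, 33.9% for LZK KO and 45.7% for double KO. The part of these markers in the GABA values was not tested.

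SLC17A6, the main vesicular glutamate transporter of these cells, was lower in every knockout line. Its untreated level was 314, 297, 310 and 276 CPM in WT, 173, 165, 176 and 170 for DLK KO, 150, 172, 129 and 152 for LZK KO, and 170, 145, 171 and 168 for double KO. WT lay above all 12 knockout libraries, which overlapped one another. The log2 change of SLC17A6 (chr11:22338097-22379503, plus strand) was -0.81 ± 0.08 (adjusted p = 1.52e-10), -0.99 ± 0.08 (1.24e-12) and -0.87 ± 0.08 (1.25e-11) in DLK KO, LZK KO and double KO. Under the ATF2 gRNA it was instead higher than Control gRNA (262, 325, 304, 301 and 306 against 211, 228, 253, 231 and 242 CPM), by 0.36 ± 0.05 (3.71e-08), without overlap. Under the JUN gRNA (196, 201, 185, 220 and 190) it was lower and overlapped Control gRNA, at -0.23 ± 0.05 (0.00068).

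SLC17A7 (chr19:49429401-49442360, minus strand), the other vesicular glutamate transporter detected, did not follow SLC17A6. In untreated libraries it was 28.1, 31.9, 28.2 and 26 CPM in WT, 42, 42.7, 40.8 and 44.7 for DLK KO, 28, 24.1, 27.2 and 23.1 for LZK KO, and 19.2, 19.8, 19.9 and 19.5 for double KO. DLK KO lay above WT (0.58 ± 0.10, adjusted p = 8.86e-06), double KO below it (-0.54 ± 0.10, 2.82e-05), and LZK KO overlapped WT (-0.16 ± 0.10, 0.244). Under the guides the changes were small: 0.12 ± 0.04 (0.0102) for the ATF2 gRNA and -0.11 ± 0.04 (0.0364) for the JUN gRNA, the latter lost under 8 of 16 alternatives, with adjusted p up to 0.197.

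Vincristine moved the pair of glutamate transporters in opposite directions in WT and under the Control gRNA. SLC17A6 rose in WT to 332, 385, 376 and 463 CPM (0.38 ± 0.08, adjusted p = 0.000257) and under the Control gRNA to 309, 292, 302, 299 and 291 CPM (0.36 ± 0.05, 6.57e-08), above all untreated libraries of each line. SLC17A7 fell in WT to 24.4, 21.5, 24.9 and 15.7 CPM (-0.40 ± 0.10, 0.00244) and under the Control gRNA from 171, 177, 171, 168 and 171 to 131, 144, 138, 143 and 136 CPM (-0.31 ± 0.04, 2.14e-09), below all untreated libraries. The WT value of SLC17A7 had an adjusted p of 0.0583 where only the WT groups were fitted. Cell type markers moved with the drug as well. Under the Control gRNA, pan-neuronal markers summed to 10500 to 11100 CPM with vincristine against 14400 to 14900 untreated, progenitor markers to 2430 to 2530 against 1310 to 1400, and glial markers to 21.9 to 25.4 against 12.8 to 16.8. In WT the same sums were 12300 to 13800 against 14600 to 15500, 923 to 1950 against 734 to 775, and 26.6 to 31.2 against 24.2 to 28.2. Their part in the responses of the members was not tested.

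In the altered lines fewer of these responses passed. SLC17A6 changed by 0.27 ± 0.08 (adjusted p = 0.0328) for DLK KO, a call lost when any single DLK KO library was left out (adjusted p 0.0502 to 0.108), and by 0.20 ± 0.08 (0.189) for LZK KO and 0.10 ± 0.08 (0.814) for double KO. The difference from WT did not pass: -0.11 ± 0.11 (0.559), -0.18 ± 0.11 (0.322) and -0.28 ± 0.11 (0.0788), the last passing without double KO untreated replicate 2 (-0.33, 0.0449) or WT vincristine replicate 1 (-0.35, 0.0227). Under the guides it did: SLC17A6 responded by 0.01 ± 0.05 (0.967) with the ATF2 gRNA and 0.03 ± 0.05 (0.82) with the JUN gRNA, differing from Control gRNA by -0.35 ± 0.07 (0.000196) and -0.33 ± 0.07 (0.00041). The 2 differences share the Control gRNA libraries.

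For SLC17A7 the response differed from WT by 0.48 ± 0.14 (adjusted p = 0.0127) for DLK KO and 0.43 ± 0.14 (0.0314) for double KO, and by 0.35 ± 0.14 (0.108) for LZK KO. The double KO difference was lost under 5 of 22 alternatives, among them leaving out WT vincristine replicate 4 (0.31, 0.0607). It differed from Control gRNA by 0.31 ± 0.05 (2.36e-05) under the ATF2 gRNA and 0.42 ± 0.05 (2.61e-08) under the JUN gRNA, where vincristine changed SLC17A7 by -0.01 ± 0.04 (0.965) and 0.11 ± 0.04 (0.0312). The last call was lost under 7 of 16 alternatives, with adjusted p up to 0.194.

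**Figure D3:**
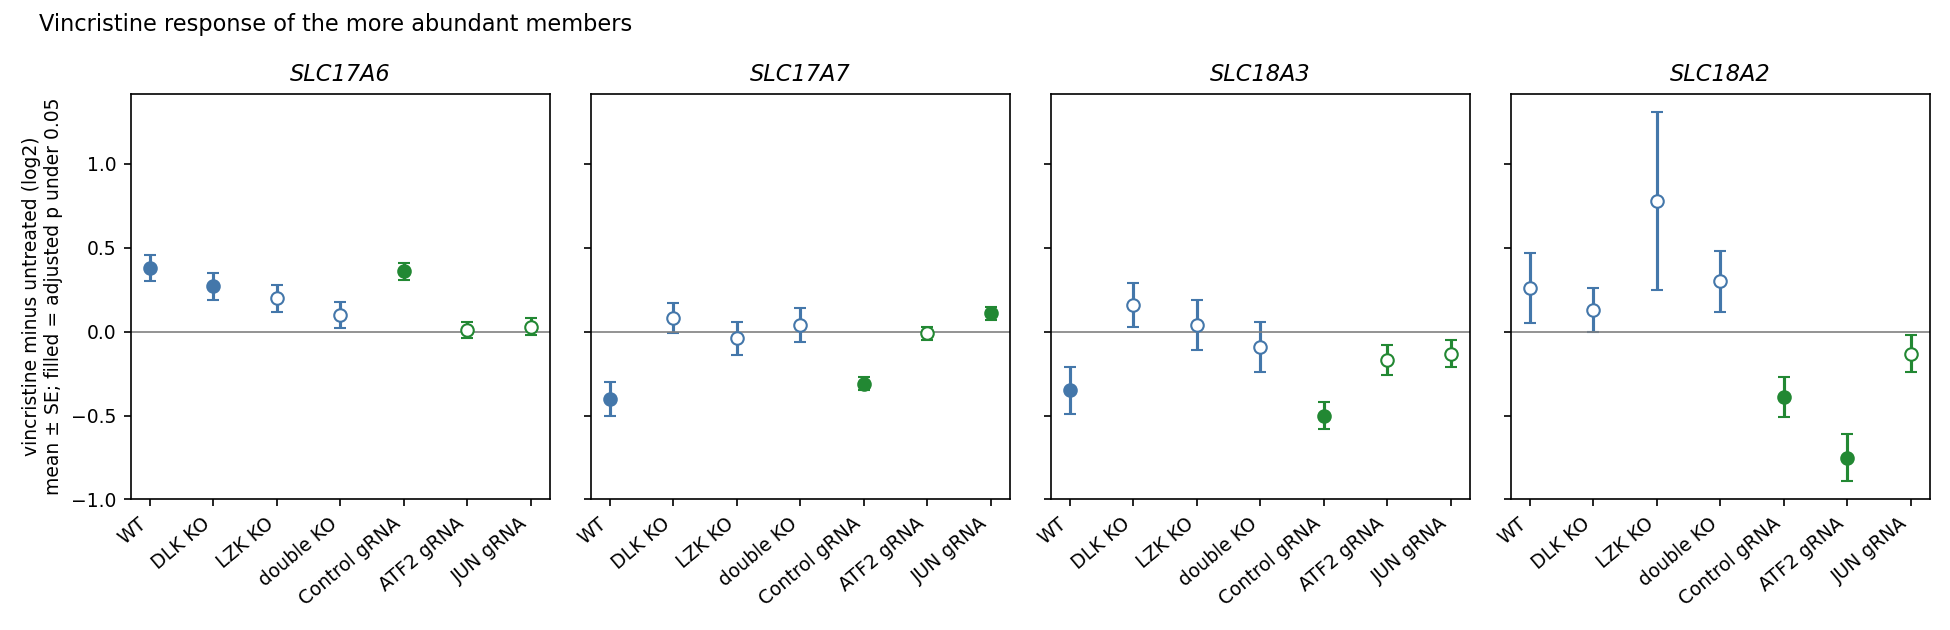
log2 change with vincristine (points, mean ± SE) of SLC17A6, SLC17A7, SLC18A3 and SLC18A2 in the 4 lines of the knockout experiment (blue) and the 3 of the guide experiment (green); filled points passed an adjusted p of 0.05. SLC17A6 is above 0 and SLC17A7 below 0 in WT and under the Control gRNA, while under the ATF2 gRNA both sit within 0.01 of 0.

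The other glutamate pathway genes had no common direction. In double KO 4 of 12 rose and 4 fell (median 0.14), and under the ATF2 gRNA 4 rose and 3 fell (median 0.01), beside 45.7% and 39.9% of all genes called. SLC1A3, a glutamate uptake transporter best known from glia, rose by 1.87 ± 0.22 (1.17e-09) under the ATF2 gRNA. Of the glutamatergic lineage factors tested, 5 of 8 fell and 3 rose in double KO (median -0.83), and under the ATF2 gRNA 5 of 9 rose and 3 fell (median 0.48). POU4F1 fell in each of the 5 altered lines, from 0.21 ± 0.03 (4.51e-06) under the JUN gRNA to 1.56 ± 0.12 (3.35e-12) in LZK KO. With vincristine POU4F1 fell by 1.29 in WT and by 1.24 under the Control gRNA. NEUROG2, on the same list, is the gene these lines are driven with, and reads of the cassette and of the gene itself cannot be told apart.

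CHAT, which makes acetylcholine, fell in all 3 knockout lines and most in double KO. Untreated levels of CHAT (chr10:49609095-49665104, plus strand) were 8.12, 9.13, 9.06 and 8.25 CPM in WT, 6.12, 5.88, 5.39 and 4.2 for DLK KO, 3.98, 5.89, 6.48 and 6.36 for LZK KO, and 1.35, 1.52, 2.1 and 1.4 for double KO. No knockout library reached WT, and double KO lay below every other library. The log2 change was -0.68 ± 0.15 (adjusted p = 0.00056) for DLK KO, -0.60 ± 0.15 (0.00218) for LZK KO and -2.42 ± 0.18 (9.83e-14) for double KO. Under the ATF2 gRNA (7.53, 7.32, 10.3, 10.8 and 11.3 CPM) it overlapped Control gRNA (10, 12.1, 12.9, 11.8 and 11.9), and the call, -0.31 ± 0.12 (0.0355), was lost when any of 6 single libraries was left out (adjusted p 0.0543 to 0.145 without each).

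SLC18A3 (chr10:49610301-49612720, plus strand) lies within an intron of CHAT, on its strand and with 0 shared exon bases, and loads acetylcholine into vesicles. It was 37.6, 43.6, 45.7 and 39.4 CPM in untreated WT, 47.4, 55.8, 59.1 and 60 for DLK KO, 26.8, 23.3, 28 and 21.1 for LZK KO, and 23.5, 23.8, 20.5 and 23.4 for double KO. So DLK KO lay above WT for SLC18A3 and below it for CHAT: SLC18A3 changed by 0.42 ± 0.13 (adjusted p = 0.0142) there, and by -0.74 ± 0.14 (8.97e-05) for LZK KO and -0.87 ± 0.14 (4.16e-06) for double KO. The ATF2 gRNA gave -0.11 ± 0.08 (0.298).

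With vincristine SLC18A3 fell under the Control gRNA from 82.9, 96.5, 83.4, 85 and 71.4 CPM to 54.1, 63.9, 57.8, 65.7 and 54.6, with no overlap (-0.50 ± 0.08, adjusted p = 9.25e-06). In WT the call, -0.35 ± 0.14 (0.0495), rested on replicate 4: treated libraries were 37.8, 37.5, 36.7 and 17.9 CPM, and without the last the change was -0.16 (0.192). The DLK KO response differed from WT by 0.51 ± 0.19 (0.0559), passing under 6 of 22 alternatives, DESeq2 included (0.51, 0.0438), and was 0.32 at the least. The response differed from Control gRNA by 0.37 ± 0.12 (0.0248) under the JUN gRNA, lost under 4 of 26 alternatives, and by 0.33 ± 0.12 (0.0484) under the ATF2 gRNA, lost under 15 of 25, with adjusted p up to 0.142. CHAT changed by -0.29 ± 0.12 (0.0567) under the Control gRNA, and passed under 3 of 16 alternatives, one of them the fit of those groups alone (0.0128).

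Of 6 other cholinergic pathway genes, 1 rose and 2 fell in double KO (median -0.06), near the 45.7% of all genes called. SLC5A7, the choline transporter that limits acetylcholine synthesis, fell from 26.4 CPM in WT to 1.88 for double KO (-3.80 ± 0.16, adjusted p = 2.5e-21) and 10.7 for LZK KO (-1.32 ± 0.12, 6.71e-11). For DLK KO, where CHAT fell too, it was 22.2 CPM and not called (-0.25 ± 0.11, 0.0903). Under the ATF2 gRNA 3 rose and 1 fell (39.9% of all genes called), SLC5A7 changing by 0.40 ± 0.13 (0.0107) and ACHE, which splits acetylcholine, by -1.38 ± 0.07 (4.66e-22). Of 5 cholinergic lineage factors tested, 1 (ISL1) rose and 2 fell in double KO (median -1.85). ISL1, a factor of motor and other cholinergic neurons, was 1.21 CPM in untreated WT, 20.5 for DLK KO, 0.434 for LZK KO and 66.3 for double KO (5.74 ± 0.14, 2.16e-28), so it was highest where CHAT was lowest.

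SLC18A2 (chr10:117241073-117279430, plus strand), the vesicular monoamine transporter whose promoter window holds the TGACGTCA shown above, moved in opposite directions in the single knockouts. Untreated libraries were 1.62, 2.05, 1.4 and 2.09 CPM in WT, 11.4, 13.6, 12.2 and 13.2 for DLK KO, 0.114, 0.241, 0.185 and 0.235 for LZK KO (1, 2, 2 and 2 counts), and 1.98, 2.17, 2.43 and 3.07 for double KO. DLK KO lay above all others and LZK KO below all others, while double KO overlapped WT. The log2 change was 2.82 ± 0.16 (adjusted p = 1.01e-16), or 7.08-fold, for DLK KO, -3.12 ± 0.36 (6.39e-09) for LZK KO and 0.45 ± 0.20 (0.0664) for double KO. The double KO value passed without double KO replicate 1 (0.53, 0.0426) or WT replicate 4 (0.53, 0.0489).

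Under the ATF2 gRNA SLC18A2 was lower, at 4.63, 5.16, 5.69, 6.11 and 5.39 CPM against 11.9, 12.5, 14.1, 13.4 and 14.1 under the Control gRNA, without overlap (-1.29 ± 0.12, adjusted p = 1.15e-12). JUN gRNA libraries (10.4, 10.9, 13.2, 11 and 11.4) overlapped Control gRNA. Vincristine lowered it further under the ATF2 gRNA, to 2.74, 3.75, 3.69 and 2.65 CPM (-0.75 ± 0.14, 0.000175), and under the Control gRNA to 9.94, 9.78, 10.9, 8.54 and 11.4 (-0.39 ± 0.12, 0.00616). The 2 responses differed by -0.36 ± 0.18 (0.152), which did not pass. The ATF2 and JUN gRNA responses differed by -0.62 ± 0.18 (0.0426), lost under 14 of 25 alternatives, with adjusted p up to 0.138.

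SLC18A2 shares 2157 of its 4145 exon bases with PDZD8 on the opposite strand. The kit marks strand, but the strand setting of the counting is not given in the sources used here. PDZD8 reached 1269 counts in a library of the knockout experiment, and how many reads of either gene were given to the other was not tested. Monoamine and glycine genes beyond it were sparse, with 8 of 17 tested in the knockout and 13 of 17 in the guide experiment. In double KO 2 rose and 2 fell, and under the ATF2 gRNA 2 rose and 4 fell, near the 45.7% and 39.9% of all genes called. DDC, which makes dopamine and serotonin from their precursors, rose in DLK KO beside SLC18A2, from 0.824 to 3.64 CPM (2.10 ± 0.27, 5.38e-08), while TH, the first enzyme of dopamine synthesis, was at most 0.559 CPM in any untreated group.

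**Figure D4:**
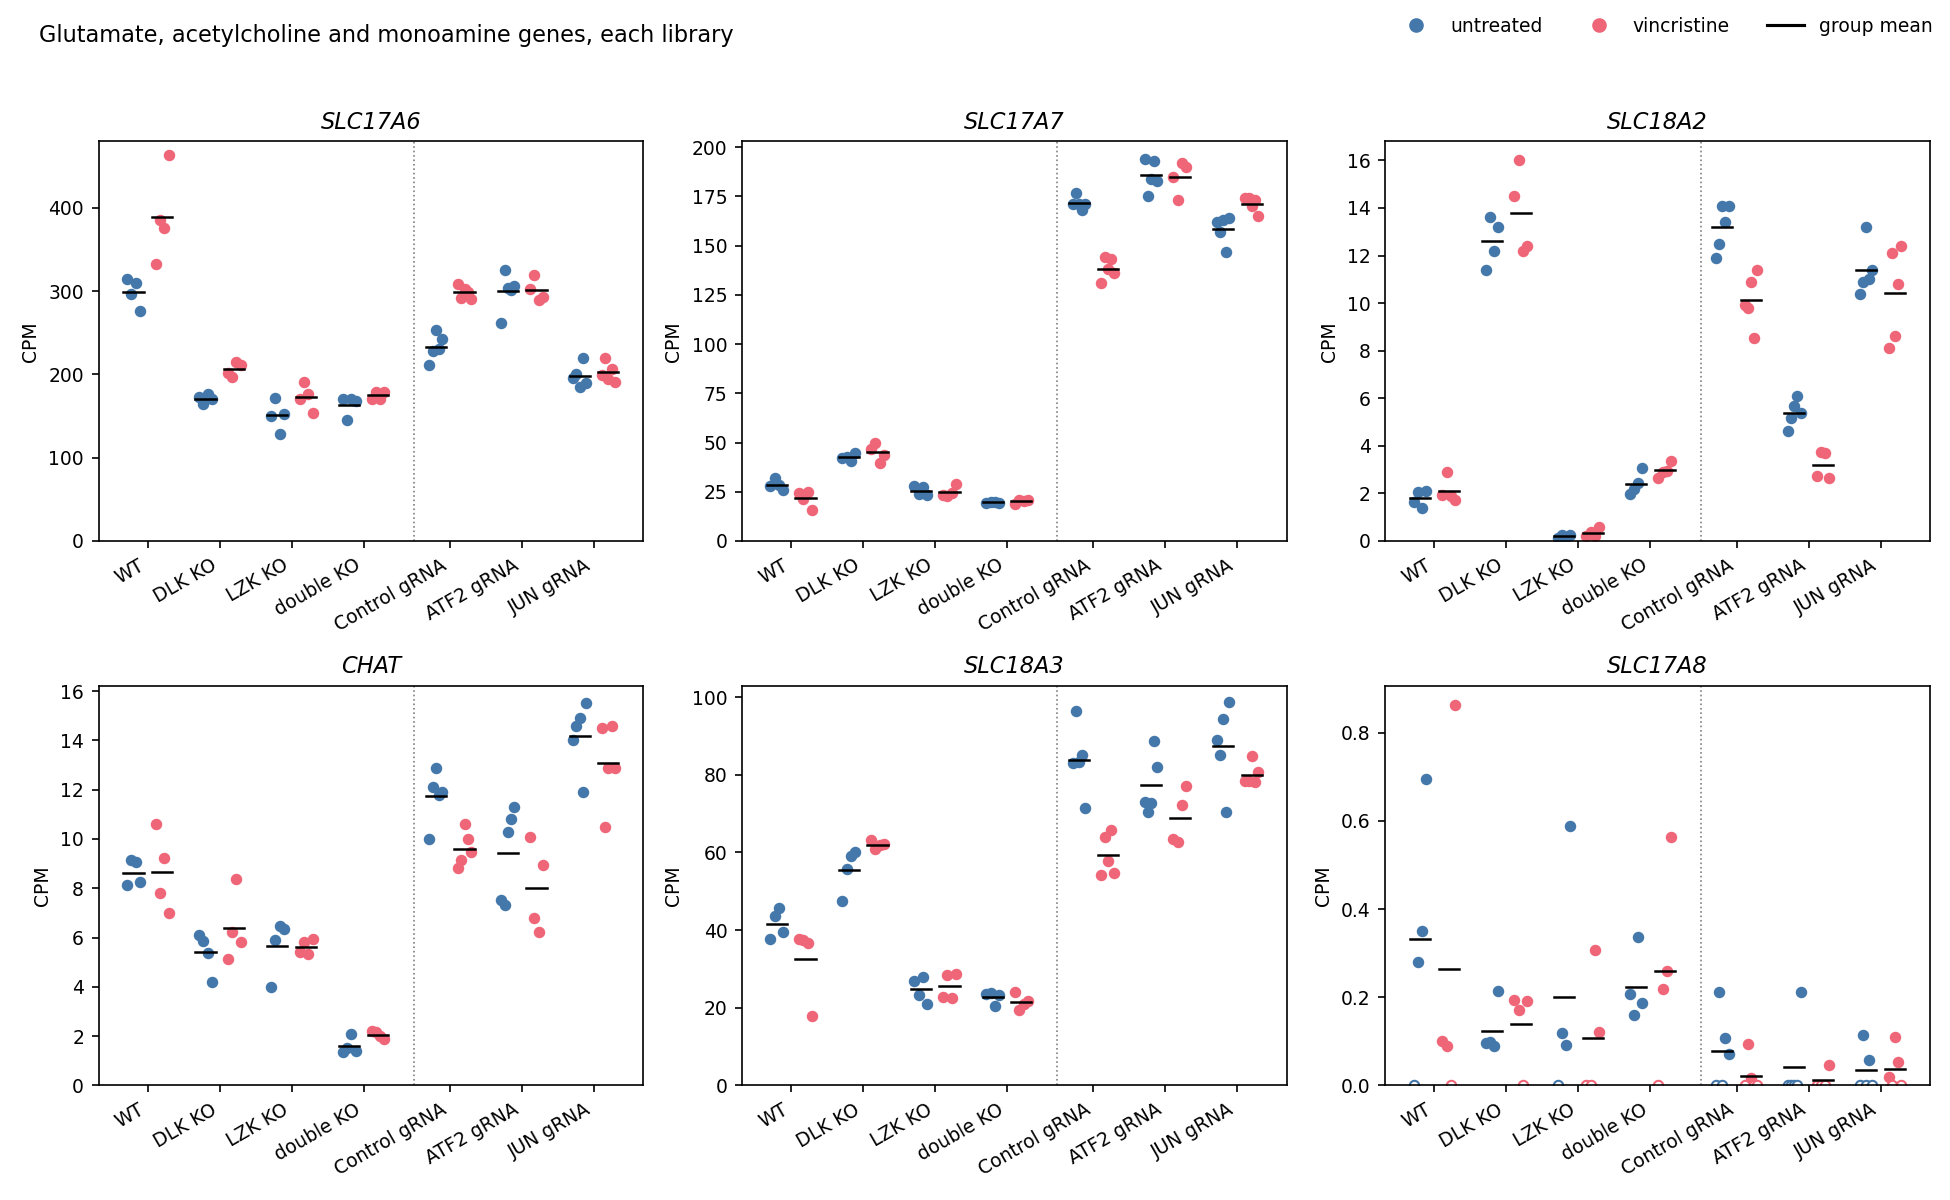
CPM of the glutamate, acetylcholine and monoamine members in each library (points, blue untreated and red vincristine; open points had 0 counts; black lines are group means; vertical axes start at 0 and differ between panels; the dotted line parts the experiments, which were scaled separately). SLC18A2 is highest for DLK KO and lowest for LZK KO, CHAT is lowest for double KO, and SLC17A8 stays below 0.9 CPM.

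Per kilobase of exon, SLC17A6 was the most abundant member in all 14 groups: 70.9 CPM per kb in untreated WT and 55.2 under the Control gRNA. The length used takes all annotated exon bases of a gene together, not those of the transcripts present. Comparisons between genes on this scale are therefore rough. As a percent of SLC17A6 per kb, untreated SLC32A1 was 0.166% in WT, 1.67% in double KO, 0.266% under the Control gRNA and 6.96% under the ATF2 gRNA. GAD2 was 0.0955%, 1.13%, 0.128% and 2.04% in the same groups, and GAD1 0.0542%, 1.68%, 0.0545% and 0.466%. So the GABA genes, though higher, stayed a small fraction of SLC17A6 in each group. On this scale SLC18A3 came next in 13 groups and after SLC17A7 with the ATF2 gRNA and vincristine. SLC18A3 was at 24.3% in untreated WT and 62.7% under the Control gRNA, and SLC17A7 was 6.7% and 51.6%. That order depends on the division by length. In CPM, SLC17A7 lay above SLC18A3 in every guide group, as in untreated Control gRNA (171 against 83.8). In the knockout experiment it did so only in untreated LZK KO (25.6 against 24.8).

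SLC17A8 (chr12:100357079-100422059, plus strand), another vesicular glutamate transporter, was at most 0.863 CPM in any library. Its highest group mean was 0.332 ± 0.286 CPM (SD, n = 4) in untreated WT, and in 4 of 5 untreated ATF2 gRNA libraries it had 0 counts. No fold or test is given.

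In some lines the called genes on the stretches of chromosome around some members leaned to 1 side. Of the 30 genes tested within 2 Mb of GAD1, 23 were called lower and 0 higher in untreated DLK KO (median log2 change -0.88), although GAD1 itself was higher there. Of all genes, 34.5% were called in that comparison. ATF2, on the same chromosome at chr2:175072250-175168382, was 71.0 CPM in untreated DLK KO against 141 in WT (-0.99 ± 0.11, adjusted p = 5.75e-09). Of the 33 genes within 2 Mb of SLC32A1, 21 were higher and 2 lower in double KO (median 0.70), against 2.50 for SLC32A1 and beside 45.7% of all genes called. Of the 11 near SLC17A6, 7 were higher and 0 lower under the ATF2 gRNA (median 0.41), close to the 0.36 of SLC17A6 itself. That count rests on few genes, beside 39.9% of all genes called, and the median fell to 0.11 over 5 Mb. Near GAD2 the median lay between -0.1 and 0.21 in each untreated comparison with WT or Control gRNA. The part of these stretches in the values of the members was not tested.

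The 5 genes whose log2 CPM was most like that of GAD2 over the 29 libraries of the guide experiment, out of 12717, were RXRG (Pearson r = 0.972), CDH20 (0.969), NCAM2 (0.969), RGS4 (0.967) and IMPAD1 (0.966). These libraries fall into ATF2 gRNA and the rest, and r is given as a description of that split. RGS4 was 217 CPM in untreated ATF2 gRNA against 15.7 in Control and 15.3 in JUN gRNA, and CDH20 66.2 against 14.0 and 12.0. Over the 32 libraries of the knockout experiment the same 5 had r of 0.605, -0.773, 0.439, 0.358 and -0.457 with GAD2. CDH20 was 1.98 CPM in untreated double KO, where GAD2 was highest, and 23.8 in WT. With Spearman's rho 0 of these 5 stayed among the nearest 5, and with a prior count of 0.5, 1 did.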

How the data were processed

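Per the labels' protocols, poly(A) RNA went through a strand-marking kit and paired-end sequencing. The authors deposited raw read counts per gene, 1 table for each experiment. The submitters' processing notes name cutadapt 3.4, STAR, featureCounts, Subread 2.0.1 and GRCh38, with no settings. Of 58440 gene identifiers 56992 had the same version and start in GENCODE 29. Each experiment was fitted on its own in edgeR 4.0.16 (R 4.3.3): filterByExpr by group (18235 and 20759 genes), TMM factors, robust quasi-likelihood fit with 1 mean per group, 2-sided tests, Benjamini-Hochberg adjustment over all genes of a comparison, 21 comparisons. Standard errors (SE) come from the F statistic. Correlations used a prior count of 2. Alternatives were DESeq2 1.42.0, RLE factors, no filter, a mean of at least 1 CPM, the replicate block, only the groups compared, and each library left out. Simulated data with 200 genes changed 2-fold gave 82% recovered and 11 false calls for untreated double KO against WT (16937 genes), and 93% and 11 for untreated ATF2 against Control gRNA (18768 genes). All genes were given the same dispersion. For the knockout experiment the changed genes had more expected counts than GAD1, GAD2 or SLC32A1 had in untreated WT (at most 7 in a library). The 82% therefore does not cover these 3 genes. No pair of replicates agreed within sampling noise (chi-square per gene 1.58 or more). The text names all 9 members, the targeted genes, called or defining genes of fixed lists, and the 5 genes most like GAD2. Some genes counted in the lists are not reported here by name. Members, lists and comparisons were chosen with earlier results of these data known.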

Additional observations from a re-analysis of the deposited data

Results flagged for a closer look

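Of 126 sets of libraries (9 members in 14 groups), 14 had a library far from the rest of its group. For normally spread values chance flags about 1 in 20. That rate does not hold for sets near 0 counts, such as those of SLC17A8. In the GABA genes these were GAD1 under the Control gRNA with vincristine, replicate 5 (0.993 CPM), GAD1 in untreated DLK KO replicate 1 (3.06), GAD2 under the JUN gRNA with vincristine, replicate 1 (0.56), and SLC32A1 under the Control gRNA with vincristine, replicate 5 (0.0248). In the abundant members they were SLC17A6 in untreated double KO replicate 2 (145), SLC18A3 in untreated double KO replicate 3 (20.5) and in WT with vincristine, replicate 4 (17.9), and SLC18A2 in WT with vincristine, replicate 2 (2.88). The others were SLC17A8, at 10 counts or fewer: untreated ATF2 gRNA replicate 5 (0.211), ATF2 gRNA with vincristine, replicate 5 (0.0453), Control gRNA with vincristine, replicate 2 (0.0942), untreated DLK KO replicate 4 (0.215), DLK KO with vincristine, replicate 3 (0), and WT with vincristine, replicate 4 (0.863).

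In 9 tested cases the response to vincristine differed between lines. Against Control gRNA these were 3 of 7 members for each guide (20.6% of all genes for ATF2, 15.8% for JUN). Against WT they were 1 of 8 for DLK KO (19.4%), 1 of 8 for double KO (19.4%) and 0 of 8 for LZK KO (12.4%). Between the ATF2 and JUN gRNA it was 1 of 7 (2.83%). Double KO differed from DLK KO (1.14%) and LZK KO (0.916%) in 0 of 8. For SLC17A6 the log2 difference from Control gRNA was -0.35 under the ATF2 gRNA and -0.33 under the JUN gRNA. For SLC17A7 it was 0.31 and 0.42 under the same guides, and 0.48 in DLK KO and 0.43 in double KO against WT. For SLC18A3 it was 0.33 and 0.37 under the ATF2 and JUN gRNA, and for SLC18A2 the ATF2 gRNA response differed from that of the JUN gRNA by -0.62. The SLC18A3 calls were lost under 15 of 25 alternatives (ATF2 gRNA) and 4 of 26 (JUN gRNA). The SLC18A2 call was lost under 14 of 25, and that of SLC17A7 in double KO under 5 of 22.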

How the results depend on the processing

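Over 159 tested results (a member in a comparison), 2617 of 2824 alternative values kept direction and side of the threshold, 89 lost a call and 33 gained one. Alternatives that filtered a gene out, or gave it no adjusted p, are not counted for that gene. For GAD2 in the guide experiment, described without a test, 168 of 171 values stayed within 1 SE of the reported one and 3 moved further, with the same sign. These refits use the libraries that chose GAD2, so they cannot show how far that choice shaped its values. The rises of GAD1, GAD2 and SLC32A1 in untreated double KO, and of GAD1 and SLC32A1 under the ATF2 gRNA, were lost under no alternative in which the gene was tested. The 1 CPM filter removed SLC32A1 in the knockout experiment. Signs changed 85 times in 25 results, 0 of them called. Outside leave-one-out fits, CHAT under vincristine in WT went to 0 with DESeq2 and RLE factors and to -0.01 with no filter or only the groups compared, and its difference of LZK KO from WT to 0. SLC17A6 under vincristine with the ATF2 gRNA was -0.01 with the replicate block, and SLC17A7 there was 0.01 with DESeq2, RLE factors and the 1 CPM filter, and 0 with only the groups compared.

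Leaving out single libraries gave these ranges where a sign changed. For vincristine, CHAT ran from -0.15 to 0.07 in LZK KO and from -0.10 to 0.09 in WT, GAD1 from -0.19 to 0.36 in DLK KO and from -0.09 to 0.19 in LZK KO, SLC17A6 from -0.04 to 0.04 with the ATF2 gRNA and from 0 to 0.07 with the JUN gRNA, and SLC17A7 from -0.03 to 0.03 with the ATF2 gRNA and from -0.12 to 0 in LZK KO. SLC18A3 ran from -0.03 to 0.12 in LZK KO, and SLC32A1 from -0.06 to 0.44 in LZK KO and from -0.13 to 0.17 in double KO. GAD2 in untreated DLK KO ran from -0.02 to 0.39. For differences in response, CHAT ran from -0.09 to 0.14 for ATF2 from Control gRNA and from -0.16 to 0.08 for LZK KO from WT, GAD1 from -0.85 to 0.18 for ATF2 from Control gRNA and from -0.47 to 0.09 for double from DLK KO, and GAD2 from -0.50 to 0.22 for LZK KO from WT, from -0.05 to 0.61 for double from LZK KO and from -0.04 to 0.46 for double KO from WT. The rest were SLC17A6 ATF2 from JUN gRNA (-0.07 to 0.01), SLC17A7 double from DLK KO (-0.10 to 0.02), SLC18A2 DLK KO from WT (-0.23 to 0.05) and double KO from WT (-0.04 to 0.23), SLC18A3 ATF2 from JUN gRNA (-0.08 to 0.03), and SLC32A1 double from LZK KO (-0.39 to 0.11).

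Members called moved from 1 to 0 for the ATF2 from JUN gRNA difference with RLE factors or only the groups compared (0 to 1 without single libraries), from 1 to 2 for DLK KO from WT with DESeq2 or no filter (1 to 2), from 1 to 0 for double KO from WT with no filter (0 to 2), and for LZK KO from WT from 0 to between 0 and 1. They moved from 2 to 1 for the untreated JUN gRNA with no filter or the block (1 to 2), from 1 to 0 for vincristine in DLK KO with the block (0 in each leave-one-out fit), from 1 to 0 with the JUN gRNA with no filter or only the groups compared (0 to 1), and from 4 in WT to 2 with the 1 CPM filter and 1 with only the groups compared (2 to 4). In WT, SLC32A1 was filtered out of those last 2 fits, so part of the fall is a gene no longer tested.

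With only the groups compared, all genes called went from 2262 to 1082 for LZK KO from WT, from 207 to 3208 for double from DLK KO (429 with DESeq2, 536 with no filter, 114 to 218 without single libraries), and for vincristine from 1267 to 768 with the ATF2 gRNA, 1190 to 3207 in DLK KO (598 to 981 without single libraries), 707 to 271 in LZK KO (452 to 783), 5498 to 3529 in WT and 12 to 1028 in double KO. The cause was not tested. Of the 5 genes most like GAD2, 0 were shared with Spearman's rho and 1 with a prior count of 0.5. Replicate numbers did not pair libraries (r of -0.176 to 0.11 and -0.042 to 0.047 between same-numbered libraries), and the block changed no count beyond those given by over 1.5 times. Of 126 group levels, 8 moved by more than 1 SD without TMM factors. With 8.41 to 14.6 M counts, GABA genes in WT rest on 2 to 19 counts per group of 4 libraries, which limits their folds there.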
